A study of Drosophila melanogaster with 10 samples.

Results

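The genes described here encode enzymes of glycolysis and of lactate formation in DL1, a line of Drosophila melanogaster cells grown in culture. They are Hex-A, Pgi, Pfk, Ald, Tpi, Gapdh1, Gapdh2, Eno, PyK and ImpL3, and a probe set counted as a member when its annotation named 1 gene only and that gene was on this list (Ald is also called Ald1, and ImpL3 is also called Ldh). The rule found 11 of the 18769 non-control probe sets on the Affymetrix Drosophila_2 array, and these stand for 9 of the 10 genes. Ald and Gapdh2 each had a pair of probe sets, and Tpi had none of its own.

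All cultures were of the DL1 line at 25˚C and all received double-stranded RNA (dsRNA) in the medium. Control RNAi cultures were given dsRNA to renilla and nbr RNAi cultures were given dsRNA to nbr/CG9247, a 3'-to-5' exoribonuclease gene, and RNA was collected after 5 days from 5 independent replicates of each, with 1 array per replicate. The values are log2 levels per probe set, so a difference of 1 is a doubling, and the number of arrays limits their precision. The nbr probe set read 11.16 to 11.48 on the control arrays and 7.56 to 8.84 on the nbr RNAi arrays. Its log2 fold change was -3.16 (limma, Benjamini-Hochberg adjusted p = 1.46e-04).

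Glycolysis splits glucose into pyruvate in the cytosol and yields ATP and NADH. The upper steps use ATP to make triose phosphates, the lower steps regain ATP, and lactate dehydrogenase turns pyruvate into lactate while restoring NAD+. In flies these genes are known to be switched on together for larval growth by the nuclear receptor ERR, and lactate dehydrogenase is often used as a sign of that state. No measured step differed detectably between the nbr RNAi and the control cultures, and the arrays were precise enough to bound each difference in signal closely.

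None of the 11 member probe sets passed limma's test (Benjamini-Hochberg adjusted p from 0.876 to 0.995), where 0.0259% of the 7729 probe sets tested passed. None had an unadjusted p under 0.05 in limma or in the unmoderated test, against 5.87% of all probe sets tested in limma, and none had groups that did not overlap, against 0.97%. All 11 passed the filter on low signal (a mean log2 level of at least 4), so no measured member was left out of the test. Their log2 fold changes ran from -0.080 for ImpL3 to 0.071 for the brighter Ald probe set, with 6 positive and 5 negative and a median of 0.0029, and the median of all probe sets tested was 0.0056. The members' median size of difference was 0.020, against 0.056 over all probe sets tested. For the 3359 tested probe sets with mean levels in the members' range, the median size was 0.042.

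Every one of the 11 intervals of 95% lay within a 1.2-fold change in either direction. These intervals bound the signal, and how closely the signal follows transcript amount, also near the top of the scale, was not tested. The lowest bound was 0.848-fold, for ImpL3, and the highest was 1.16-fold, for Hex-A. Of all probe sets tested 62.6% had intervals this narrow and this close to no change, and of the 3359 probe sets with mean levels in the members' range, 11.34 to 15.13, the share was 85.1%. The members' median standard deviation within a group was 0.084, and that of the 3359 was 0.085. A shift of the whole culture in RNA per cell would not be seen in values made alike between arrays, and in RNA from a whole culture fewer expressing cells and less RNA per cell cannot be told apart.

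**Figure D1:**
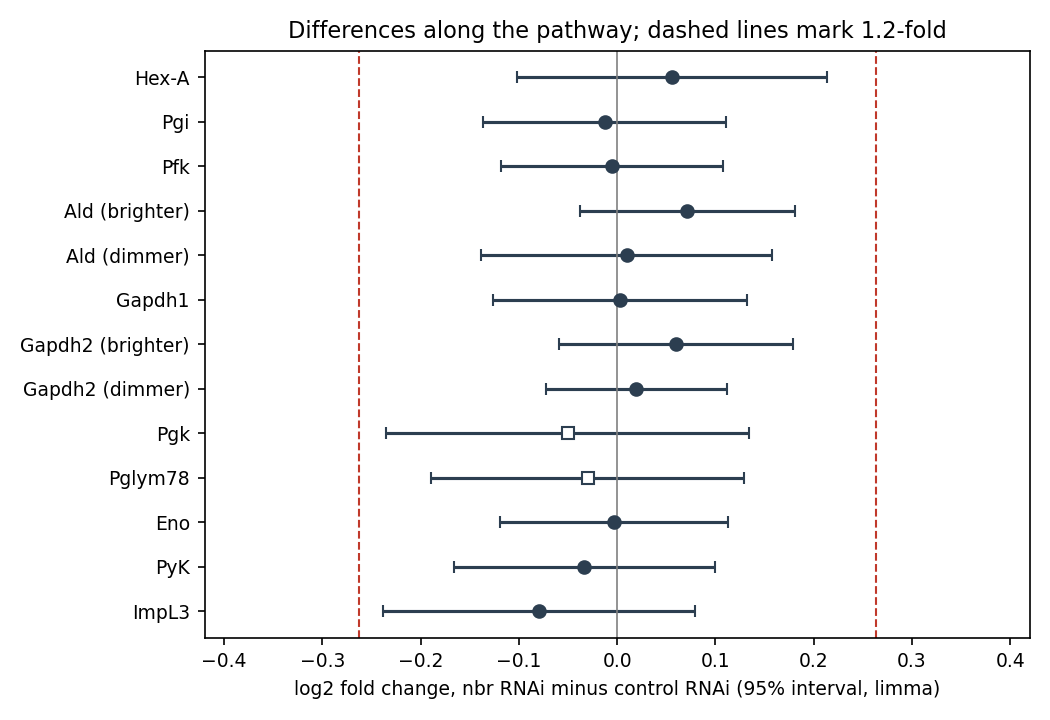
Log2 fold change (nbr RNAi minus control RNAi, x axis) of each member probe set in pathway order, with its 95% interval from limma. Open squares are Pgk and Pglym78, the steps between the Gapdh genes and Eno, and dashed lines mark 1.2-fold. All intervals include 0 and lie inside the dashed lines.

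The upper steps began with Hex-A, the hexokinase that phosphorylates glucose. Hex-A (FBgn0001186) read 12.67, 12.71, 12.62, 12.62 and 12.46 on control arrays 1 to 5 and 12.75, 12.81, 12.74, 12.57 and 12.50 on nbr RNAi arrays 1 to 5. Arrays 1, 2 and 3 of nbr RNAi lay above every control array, while array 5 lay near the lowest control array. The log2 fold change was 0.056 (standard error 0.071, 95% interval -0.10 to 0.21), and limma gave a Benjamini-Hochberg adjusted p of 0.937. Leaving out control array 5 gave 0.017, and leaving out nbr RNAi array 5 gave 0.0997.

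Pgi, which converts glucose 6-phosphate to fructose 6-phosphate, read 13.21, 13.21, 13.37, 13.19 and 13.14 in control RNAi and 13.14, 13.23, 13.12, 13.24 and 13.32 in nbr RNAi. The highest array of all was in the control group and the lowest in the nbr RNAi group, and the log2 fold change was -0.013 (interval -0.14 to 0.11). Pfk encodes phosphofructokinase, the step at which glycolysis is mainly regulated. Its control arrays read 12.04, 12.06, 12.16, 12.06 and 11.97, and its nbr RNAi arrays 11.98, 12.06, 12.11, 11.97 and 12.15. The 2 groups of Pfk values covered almost the same span, and the log2 fold change was -0.0057 (interval -0.12 to 0.11).

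Ald encodes the aldolase that splits fructose 1,6-bisphosphate. Its brighter probe set read 14.20, 14.26, 14.17, 14.17 and 14.37 in control RNAi and 14.27, 14.25, 14.36, 14.29 and 14.37 in nbr RNAi. Control array 5 was slightly above every nbr RNAi array, while the other 4 control arrays lay near or below the lowest nbr RNAi array. The log2 fold change of 0.071 (standard error 0.049) had the lowest p among the members, 0.177 unadjusted in limma and 0.876 after Benjamini-Hochberg adjustment. The exact 2-sided permutation p was 0.159.

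The dimmer Ald probe set did not follow the brighter one from array to array. It read 11.22, 11.27, 11.47, 11.52 and 11.23 in control RNAi and 11.30, 11.38, 11.38, 11.40 and 11.28 in nbr RNAi, so that the control arrays fell into a low set of 3 and a high set of 2 on either side of the nbr RNAi arrays. Its log2 fold change was 0.0096 (interval -0.14 to 0.16). Control array 5 was the highest control for the brighter probe set and among the lowest for the dimmer one. Over the 10 arrays, as deviations from group means, Pearson's r between the probe sets was -0.59 (permutation p = 0.056) and Spearman's rho was -0.61 (permutation p = 0.067). Adjusted over the 2 such relations examined, the p-values were 0.113 and 0.134, and without control array 5 and nbr RNAi array 5 Pearson's r was -0.43. Both probe sets are annotated to the same gene, and which of its transcripts and which parts of them each one reads was not examined.

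Tpi, the triosephosphate isomerase, was read only by a probe set that is also annotated to CG1607. That shared probe set read 12.38 to 12.66 in control RNAi and 12.41 to 12.61 in nbr RNAi, and it cannot be assigned to either gene.

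**Figure D2:**
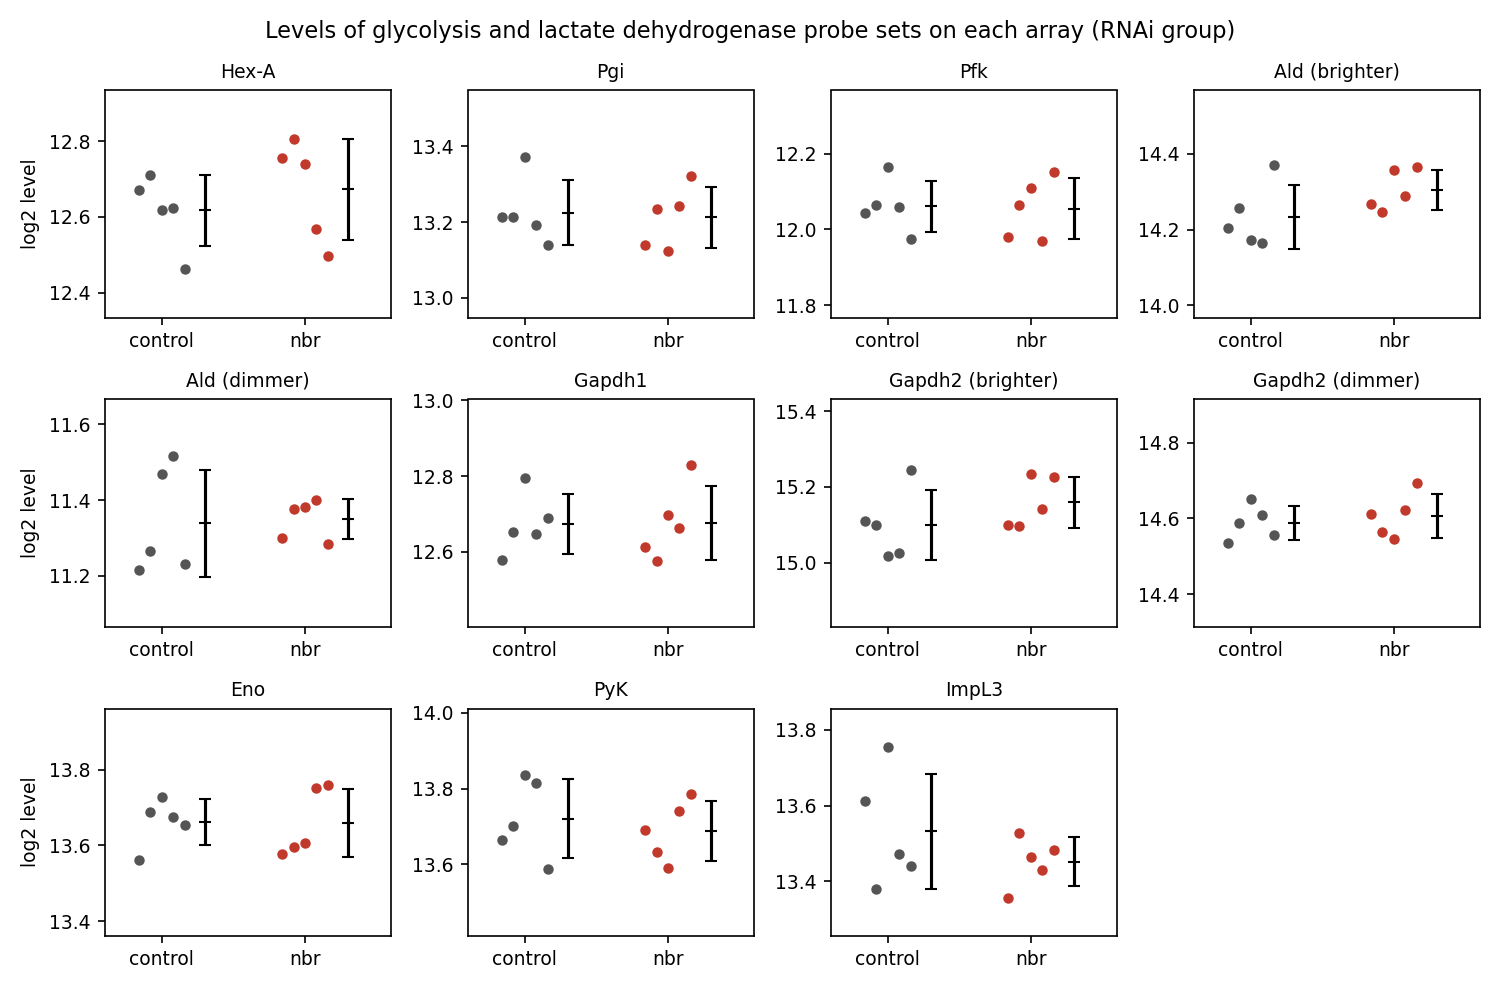
Log2 level (y axis, each panel spanning the same range of 0.6) of the 11 member probe sets on each array. Grey points are control RNAi arrays 1 to 5 and red points nbr RNAi arrays 1 to 5, from left to right, with the mean and SD (n = 5) beside them, and in every panel the groups overlap.

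The lower steps start with glyceraldehyde-3-phosphate dehydrogenase, which flies carry as the paralogs Gapdh1 and Gapdh2. Gapdh1 (FBgn0001091) read 12.58, 12.65, 12.79, 12.65 and 12.69 in control RNAi and 12.61, 12.58, 12.70, 12.66 and 12.83 in nbr RNAi. Its group means were 12.67 ± 0.079 (SD, n = 5) and 12.68 ± 0.098 (SD, n = 5), nearly the same value, and the log2 fold change was 0.0029 (interval -0.13 to 0.13). The sign of that value turned to -0.013 after quantile normalization, to -0.0031 after median centring and to -0.016 with array weights.

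Gapdh2 (FBgn0001092) was read by a pair of probe sets. The brighter one, whose mean of 15.13 was near the top of the scale, read 15.11, 15.10, 15.02, 15.03 and 15.25 in control RNAi and 15.10, 15.10, 15.23, 15.14 and 15.23 in nbr RNAi. The highest signals of any non-control probe set on the arrays were 15.59 to 15.65, and control array 5 was above every nbr RNAi array. The dimmer one read 14.54, 14.59, 14.65, 14.61 and 14.56 in control RNAi and 14.61, 14.56, 14.55, 14.62 and 14.69 in nbr RNAi, the tightest groups among the members, with a pooled SD of 0.052. The log2 fold changes of the pair were 0.060 (interval -0.059 to 0.18) and 0.020 (interval -0.073 to 0.11).

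The Gapdh2 pair also differed in its course over the arrays. Control array 5 was the highest control on the brighter probe set and second lowest on the dimmer one. Pearson's r of their deviations over the 10 arrays was -0.26 (permutation p = 0.471, same value after adjustment) and Spearman's rho was -0.44 (permutation p = 0.205, same value after adjustment). Without control array 5 and nbr RNAi array 3 Pearson's r was 0.18, so the sign rested on those arrays.

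Whether the paralogs moved unequally was asked of the difference of their log2 levels within each array, with the Gapdh2 pair averaged. The Gapdh2 minus Gapdh1 difference was 2.24, 2.19, 2.04, 2.17 and 2.21 on control arrays 1 to 5 and 2.24, 2.25, 2.19, 2.22 and 2.13 on nbr RNAi arrays 1 to 5. The group means were 2.17 ± 0.078 (SD, n = 5) and 2.21 ± 0.050 (SD, n = 5), and the groups overlapped. The nbr RNAi mean was above the control mean by 0.037, with a 95% interval of -0.059 to 0.13 and a 2-sided exact permutation p of 0.437 where the smallest p these groups allow is 0.00794. With the brighter Gapdh2 probe set alone the difference between groups was 0.057, and with the dimmer one alone 0.017. The lowest differences were on control array 3 and nbr RNAi array 5, the arrays on which Gapdh1 was highest in its group.

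The Gapdh2 probe sets were brighter than that of Gapdh1 on all 10 arrays, but signals of different probe sets do not rank transcripts, since each has its own probes. A gauge of this lies in the Ald pair, which differed by 2.65 to 3.14 on the log2 scale on the same arrays, more than the Gapdh2 minus Gapdh1 difference on any of them. The Gapdh2 pair differed from each other by 0.36 to 0.69. In the same way, levels along the pathway are given here as the brightness of each probe set, with no order of transcript amounts drawn from them.

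**Figure D3:**
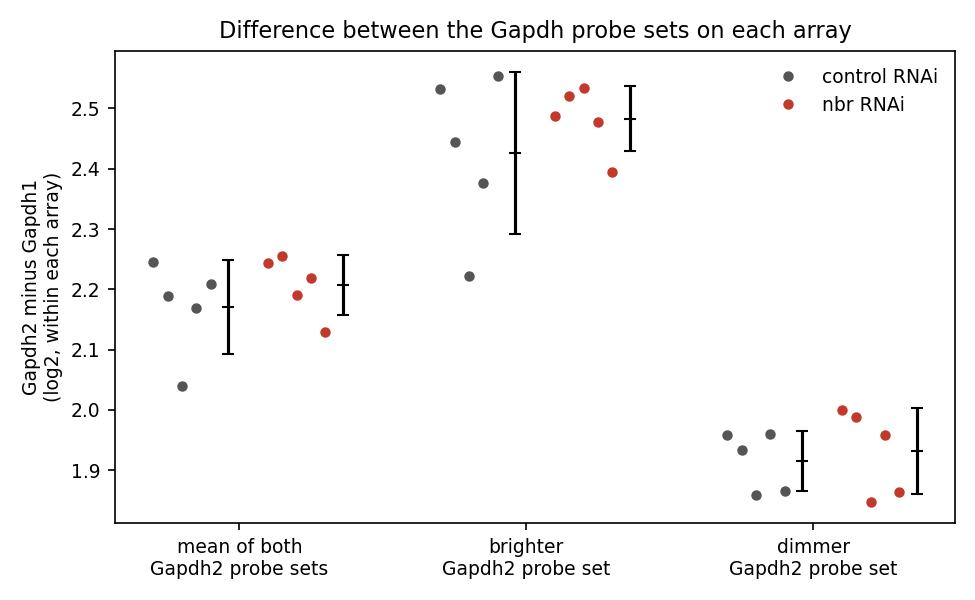
Gapdh2 minus Gapdh1 within each array (log2, y axis), for the mean of both Gapdh2 probe sets and for each of them alone. Grey points are control RNAi arrays and red points nbr RNAi arrays 1 to 5 from left to right, with mean and SD (n = 5). The groups overlap in all 3 versions, and the choice of probe set moves the level of the difference more than the RNAi does.

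Eno, enolase, read 13.56, 13.69, 13.73, 13.68 and 13.65 in control RNAi and 13.58, 13.59, 13.61, 13.75 and 13.76 in nbr RNAi. The nbr RNAi arrays fell into 3 low and 2 high values that spanned all control arrays but the lowest, and the log2 fold change was -0.0030 (interval -0.12 to 0.11). A further probe set annotated to both Eno and CG31287 was not a member and read 2.23 to 2.29 on all arrays, under the filter on low signal. In the RefSeq annotation (Release 6 plus ISO1 MT) Eno overlaps Rrp40 and Ald1 overlaps the antisense gene asRNA:CR44321, and whether the probes lie in these overlaps was not examined.

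PyK encodes pyruvate kinase, which regains ATP in the last step to pyruvate. It read 13.67, 13.70, 13.84, 13.82 and 13.59 in control RNAi and 13.69, 13.63, 13.59, 13.74 and 13.78 in nbr RNAi. All nbr RNAi arrays lay inside the span of the controls, and the log2 fold change was -0.033 (interval -0.17 to 0.099).

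ImpL3, the lactate dehydrogenase gene, had the largest negative value among the members. It read 13.61, 13.38, 13.76, 13.47 and 13.44 in control RNAi and 13.36, 13.53, 13.47, 13.43 and 13.48 in nbr RNAi. Control arrays 1 and 3 were above every nbr RNAi array, the other control arrays were not, and the control SD of 0.15 was the widest of any member in either group. The log2 fold change was -0.080 (standard error 0.071, interval -0.24 to 0.079), short of a call (limma, Benjamini-Hochberg adjusted p = 0.899). Without control array 3 it was -0.024. In the authors' deposited table ImpL3 stands at -1.06-fold, and the q-values there for the 11 member probe sets run from 36.6% to 38.5%.

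The upper steps from Hex-A to Ald had a median log2 fold change of 0.0096 over 5 probe sets, and the lower steps from Gapdh1 to PyK a median of 0.0029 over 5 probe sets. The steps between Gapdh and enolase are carried out by Pgk, phosphoglycerate kinase, and Pglym78, phosphoglycerate mutase, which are not among the members. Pgk was at -0.050 (interval -0.23 to 0.13), with group means of 11.66 ± 0.13 and 11.61 ± 0.15 (SD, n = 5), and it went to -0.00025 without nbr RNAi array 3 and -0.10 without nbr RNAi array 5. Pglym78 was at -0.030 (interval -0.19 to 0.13), with group means of 11.64 ± 0.084 and 11.61 ± 0.14 (SD, n = 5). Neither passed (limma, Benjamini-Hochberg adjusted p = 0.956 and 0.964).

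On some arrays most of the members lay to the same side of the other arrays of their group. On control array 3, 9 of the 11 probe sets were above the mean of the other 4 control arrays, by a median of 0.13, where 56.9% of all probe sets tested were above. On nbr RNAi array 5, 9 of 11 exceeded the average of nbr RNAi arrays 1 to 4, with a median gap of 0.11, where 61.3% of all probe sets tested were above. On control array 5, 8 of 11 were below, with a median of -0.11, where 39.7% of all probe sets tested were above. Control array 1 and nbr RNAi array 1 also had 8 of 11 below, by smaller medians of -0.036 and -0.075. Of all probe sets tested, 49.4% and 47.2% were above on these arrays. On the remaining arrays the members' median deviation ran from -0.055 to 0.028. A single array varies more than a mean of 5, so these shifts are not set against the difference between groups.

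On control array 3 ImpL3 had the largest deviation of any member, 0.28 above the average of the other control arrays. On nbr RNAi array 5 Hex-A went against most other members, deviating from the average of arrays 1 to 4 by -0.22. The dimmer Ald probe set was also lower there, at 11.28 against 11.30 to 11.40 on nbr RNAi arrays 1 to 4. The brighter probe sets of Ald and Gapdh2 were the highest on control array 5, while Hex-A, Pgi, Pfk and PyK had their lowest control values there. The cause of these shifts was not tested.

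**Figure D4:**
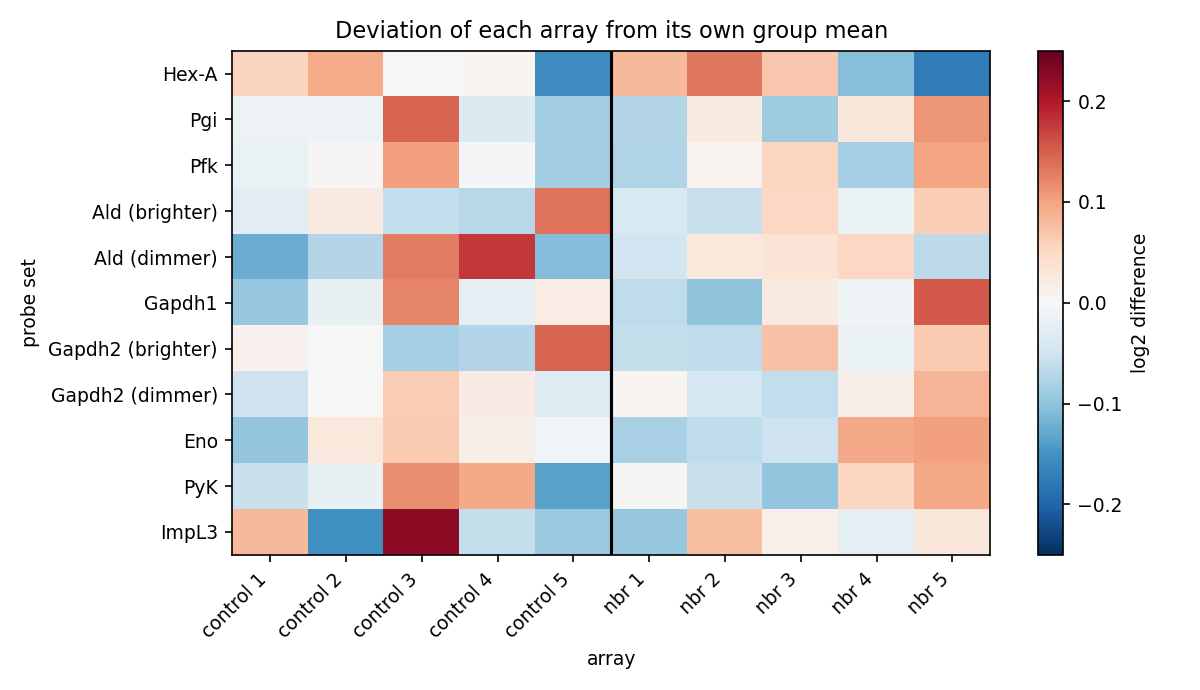
Deviation of each array (columns) from the mean of its own group, on the log2 scale, for the 11 member probe sets (rows in pathway order); red is above and blue below the group mean, and the black line parts the groups. Control array 3 and nbr RNAi array 5 are mostly red, and on control array 5 the brighter Ald and Gapdh2 probe sets are red where Hex-A and PyK are blue.

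Around the members, 7 lists of related genes held 43 tested genes, each taken at its brightest probe set, and none was called in either direction in limma (lowest Benjamini-Hochberg adjusted p = 0.849). At an unadjusted p under 0.05 limma had 3 of the 43 (6.98%), close to the 5.87% of all probe sets tested. Of the 43 log2 fold changes 27 were positive and 16 negative, with a median of 0.025 and a range of -0.15 to 0.25, and of all probe sets tested 52.9% were positive.

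The list of other glycolysis genes had 6 tested genes, 3 positive and 3 negative, with a median of 0.034. Pfrx, the enzyme that makes and breaks the Pfk activator fructose 2,6-bisphosphate, was at 0.077 (interval -0.033 to 0.19). CG9961, a relative of Pgk, was at 0.25 (interval -0.18 to 0.67), with group means of 4.12 and 4.37, close to the filter on low signal, and ran from 0.093 without nbr RNAi array 5 to 0.36 without control array 3. The other 7 genes of this list with a probe set, Hex-C, Hex-t1, Pglym87, CG2964, CG7362, CG11249 and CG13334, were under the filter, so the array gives no limit on their changes.

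Pyruvate enters the mitochondrion through a carrier and is turned to acetyl-CoA by pyruvate dehydrogenase. All 7 tested genes of that list had positive values, from 0.010 to 0.12 with a median of 0.054, and none passed. The dehydrogenase subunit genes Pdha and muc were at 0.091 (interval -0.023 to 0.20) and 0.12 (interval -0.034 to 0.27). The carrier-like gene CG9399 was at 0.077 (interval -0.013 to 0.17).

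Of 11 genes of the side routes that move lactate or regenerate NAD+ through glycerol 3-phosphate, 5 were under the filter on low signal. The 6 tested genes were all positive, from 0.049 to 0.13 with a median of 0.10, and none passed. The monocarboxylate transporter family gene out was at 0.13 (interval -0.0054 to 0.27) and CG8389 at 0.092 (interval -0.0045 to 0.19). Gpdh1, the cytosolic glycerol 3-phosphate dehydrogenase, was at 0.075 (interval -0.062 to 0.21), while ImpL3, which also restores NAD+, was at -0.080. Among those under the filter was Sln, a transporter that carries lactate and pyruvate. Of the tested genes of this list, chk had group means of 11.02 and 11.13 and was at 0.11 (interval -0.14 to 0.35). Gpdh1 and chk are given at their brightest probe set, and the values of their other probe sets are not given here.

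The pentose phosphate pathway branches from glucose 6-phosphate and makes NADPH. Of its 7 tested genes 2 were positive and 5 negative, with a median of -0.014. Taldo (transaldolase) was at -0.061 (interval -0.22 to 0.10), Zw (glucose 6-phosphate dehydrogenase) at -0.049 (interval -0.31 to 0.21) and the transketolase gene CG8036 at -0.012 (interval -0.097 to 0.072).

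Glyp encodes glycogen phosphorylase, which feeds sugar from glycogen into glycolysis, and had the lowest p among the related genes. It read 13.20, 13.25, 13.33, 13.21 and 13.22 in control RNAi and 13.04, 13.11, 13.05, 13.14 and 13.12 in nbr RNAi, and every nbr RNAi array lay below every control array. The log2 fold change was -0.15 (standard error 0.040, interval -0.24 to -0.061). In limma its p was 0.0037 unadjusted and 0.849 after Benjamini-Hochberg adjustment, so it was not called. It was the 1 gene of the 43 whose groups did not overlap, a share of 2.33%, against 0.97% of all probe sets tested. The sugar transporter gene sut1 was at 0.078 and the trehalase gene Treh at 0.088, the only other tested genes of that list, while Glut1 was under the filter on low signal.

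Gluconeogenesis runs glycolysis backwards past its irreversible steps. PCB, pyruvate carboxylase, read 11.76, 11.86, 11.85, 11.70 and 11.74 in control RNAi and 11.83, 11.95, 11.94, 11.94 and 11.97 in nbr RNAi. These are values of its brighter probe set, and those of the dimmer one are not given here. All nbr RNAi arrays but array 1 lay above all controls, the log2 fold change was 0.15 (interval 0.043 to 0.25), and limma did not call it (Benjamini-Hochberg adjusted p = 0.849). The fructose bisphosphatase gene fbp was at 0.12 (interval -0.24 to 0.48) and G6P, glucose 6-phosphatase, at -0.095 (interval -0.24 to 0.046). Of the 4 tested genes 2 were positive and 2 negative.

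All 10 measured regulators were above the filter, 5 positive and 5 negative, with a median of 0.0059. The sugar-responsive factor gene sug was at 0.18 (interval 0.0062 to 0.36), Hph, the prolyl hydroxylase that marks the hypoxia factor Sima for breakdown, at 0.077 (interval -0.11 to 0.26), and the insulin pathway kinase Akt at 0.028 (interval -0.049 to 0.10). None passed (limma, Benjamini-Hochberg adjusted p from 0.849 to 0.995). ERR, which switches on glycolytic genes for larval growth, had no probe set of its own under the rule used.

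**Figure D5:**
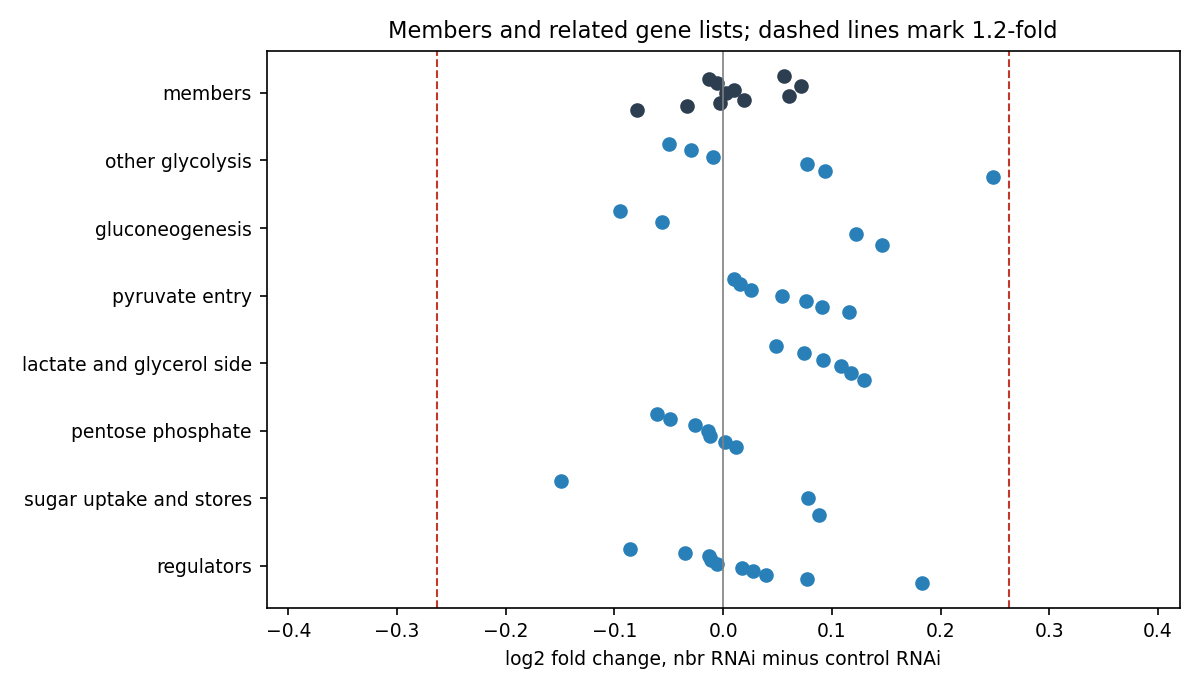
Log2 fold change (nbr RNAi minus control RNAi, x axis) of the 11 member probe sets and of the tested genes of 7 related lists, 1 point each; dashed lines mark 1.2-fold. All points lie inside the dashed lines, and those of the pyruvate entry and lactate and glycerol lists are all above 0.

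Over the whole series the arrays correlated at 0.977 to 0.998 across probe sets, and nbr RNAi array 5 had the lowest mean correlation, 0.982. Of 10 markers of plasmatocytes, fly blood cells, 7 were above the filter, while Col4a1, vkg and Sr-CI read near background. In control RNAi srp, crq, eater and SPARC had means of 11.90 to 13.30, and Pxn, NimC1 and Hml had low means of 5.52 to 7.28. The sum of the log2 levels of all 10, those near background included, was 76.30 to 77.55 on control arrays and 75.14 to 78.17 on nbr RNAi arrays. Within that sum the markers went different ways. SPARC was at 0.19 on the log2 fold scale (interval 0.060 to 0.32; limma, Benjamini-Hochberg adjusted p = 0.849). On nbr RNAi array 5 eater read 10.54, against 12.01 to 12.13 on arrays 1 to 4, and Hml 6.30, against 7.40 to 7.61. The part of these markers in the members' values was not tested. All 5 muscle, 5 fat body and 4 germline markers were under the filter, as were 3 of 4 neuron markers, with elav the exception at 8.78 in control RNAi.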

How the data were processed

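Biotin-labelled cDNA, amplified from total RNA, was hybridised to 10 arrays. Per the submitters' processing notes GCRMA and Partek were used, and the deposited values are log2 levels per probe set; versions and order of steps are not given in the sources used here. All 189520 array values in the value table matched those deposited beside the authors' statistics. Per the file headers those statistics are a fold change with a sign, a p-value, a score and a q-value (percent), by a tool the headers do not name.

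Non-control probe sets with a mean of at least 4 over the 10 arrays were tested with lmFit and eBayes of limma 3.58.1 (R 4.3.3), nbr RNAi minus control RNAi, without covariates, 2-sided, with Benjamini-Hochberg adjustment over all 7729 and a call at 0.05. The fit was tested on simulated data. The Gapdh2 minus Gapdh1 difference was compared with an exact permutation test, and its interval assumes equal variances. Correlations used permutation tests. Python 3.11.15, pandas 2.3.3, scipy 1.17.1 and matplotlib 3.10.9 were used.

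Symbols were updated by RefSeq accession. Members, lists and the naming rule (all members, nbr, Pgk, Pglym78 and up to 3 tested genes of lowest p per list) were chosen with earlier results of these data known; PCB and Glyp here are listed in the file as CG1516 and GlyP. Alternatives were no filter or a stricter one, array weights, median centring, quantile normalization, a fit with trend and robust, an unmoderated test, the replicate number as a block, the series value table, the brightest probe set per member and leaving out each array. Single Gapdh2 probe sets were added after the data were seen. No sequences or coordinates are given, since the table used holds none of the array's build.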

Additional observations from a re-analysis of the deposited data

Results flagged for a closer look

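Among 70 groups of 5 arrays examined for a single far array, 5 had one, and chance gives about 1 in 20; none of these was a member. PCB was low on nbr RNAi array 1, at 11.83 against 11.94 to 11.97 on the other 4. Pdha was high on nbr RNAi array 5, at 12.57 against 12.37 to 12.41. CG9961 was high on nbr RNAi array 5, at 4.99 against 4.08 to 4.30. Pglym78 was high on control array 3, at 11.78 against 11.58 to 11.63. CG8389 was low on control array 4, at 10.75 against 10.88 to 10.93.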

How the results depend on the processing

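No member probe set was called under any of the alternatives run, over 209 fits of a member in which the lowest limma Benjamini-Hochberg adjusted p was 0.517 and log2 fold changes stayed between -0.12 and 0.11. The direction turned in 25 of these fits, all of values near 0. Gapdh1 turned to -0.013 with quantile normalization, -0.0031 with median centring and -0.016 with array weights; the cause was not tested. The other turns came from leaving out 1 array, where Gapdh1 ran from -0.036 to 0.033, Eno from -0.028 to 0.017, Pgi from -0.040 to 0.024, Pfk from -0.030 to 0.020, the dimmer Ald probe set from -0.021 to 0.054 and the dimmer Gapdh2 probe set from -0.0018 to 0.036. Members that kept their sign ran from 0.017 to 0.0997 for Hex-A, 0.054 to 0.11 for the brighter Ald probe set, 0.039 to 0.097 for the brighter Gapdh2 probe set, -0.067 to -0.0043 for PyK and -0.12 to -0.024 for ImpL3. Among the related genes Pglym78 ran from -0.080 to 0.014, Zw from -0.12 to 0.024, fbp from -0.0066 to 0.21 and CG8036 from -0.034 to 0.0012. The members' median ran from -0.028 to 0.033 when an array was left out, and with all arrays it was 0.0029. The Gapdh2 minus Gapdh1 difference between groups ran from 0.0043 to 0.056 (exact permutation p from 0.190 to 0.889), and stayed positive with either Gapdh2 probe set. No gene of the 7 related lists was called under any alternative.

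With the replicate number as a block no member was called (limma, Benjamini-Hochberg adjusted p from 0.998 to 0.999). The deviations of arrays sharing a number had correlations of -0.47 to 0.18 across probe sets. Shifts of whole arrays enter these values, so they cannot decide whether the numbers mark a pairing. The median of tested probe sets differed between groups by 0.0061. Genes under the filter have no limit on change.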
